A study of Mus musculus with 8 samples.

Results

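The AP-1, Egr and immediate-early genes described here are Fos, Fosb, Jun, Junb, Jund, Egr1, Egr2, Egr3, Dusp1 and Ier2, read in mouse spleen B cells on 8 Affymetrix whole-transcript arrays. A probe set was taken where the platform's table gave it exactly 1 gene symbol and that symbol was one of these, which found 10 of the 21515 genes measured. Jund had a pair of probe sets and the others 1 each. There were 4 groups of 2 arrays, labelled biological replicates. LMP1 cells came from female (C57BL6XBALBc) F1 mice of genotype LMP1flSTOP/YFPflSTOP, and YFP control cells from female mice of the same cross with YFPflSTOP/+. Both were treated with TAT-Cre, a recombinase that enters cells and removes the stop cassette, and were sorted for the YFP reporter after 2 days. CD40-activated cells and naive control cells came from male B6/J mice. Activation was by anti-CD40 antibody over 2 days, and naive cells went straight into RNA extraction. All 4 groups were B cells enriched by removing CD43-bearing cells. The LMP1 and YFP control arrays were re-analyzed from earlier work, so strain, sex and set of arrays cannot be told apart wherever they are set against the other 2 groups. The labels give no age, no pooling of animals and no promoter for the floxed alleles.

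Immediate-early genes are switched on by signalling through MAP kinases and the serum response factor without any need for new protein, and their transcripts are short-lived. Fos and Jun proteins pair through leucine zippers to form AP-1, and Egr proteins are zinc finger transcription factors that antigen receptor signalling induces in lymphocytes. LMP1, a membrane protein that Epstein-Barr virus makes in latently infected cells, signals without a ligand and is known to activate the Jun kinase JNK, as does the receptor CD40, whose adaptors it shares.

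Values are log2 expression from RMA, a robust multi-array average that sets all arrays to a common distribution, so a level can be compared between arrays for 1 gene but not between genes. Array medians lay between 5.52 and 5.68. Over all genes the replicate arrays correlated at r = 0.996 for LMP1, 0.975 for YFP control, 0.993 for CD40-activated and 0.981 for naive control. B cell markers lay high on every array, with a mean over 8 measured genes of 10.51 to 10.54 in LMP1, 11.25 to 11.46 in YFP control, 11.25 to 11.28 in CD40-activated and 11.17 to 11.18 in naive control. A gene is said to have passed where its adjusted p was under 0.05 in 1 limma fit of all arrays, adjusted over all genes. The precision of every value is limited by 2 arrays a group, and whether the labelled replicates came from separate mice is not stated.

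Promoter sequences were available in RefSeq's table for 7 of the 10 genes, each running from 250 bases before to 50 after the gene start on build GRCm38.p6. Of these, 4 are shown because their genes stand for the different patterns over the groups, and capitals mark a motif found on either strand.
Fos promoter, chr12:85473640-85473939, plus strand: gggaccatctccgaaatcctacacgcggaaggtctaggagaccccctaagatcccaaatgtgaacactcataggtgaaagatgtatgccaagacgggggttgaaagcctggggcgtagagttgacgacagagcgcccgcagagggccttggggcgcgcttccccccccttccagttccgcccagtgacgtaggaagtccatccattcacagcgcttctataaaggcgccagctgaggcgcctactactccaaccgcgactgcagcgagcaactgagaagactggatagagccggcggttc
Dusp1 promoter, chr17:26508423-26508722, minus strand: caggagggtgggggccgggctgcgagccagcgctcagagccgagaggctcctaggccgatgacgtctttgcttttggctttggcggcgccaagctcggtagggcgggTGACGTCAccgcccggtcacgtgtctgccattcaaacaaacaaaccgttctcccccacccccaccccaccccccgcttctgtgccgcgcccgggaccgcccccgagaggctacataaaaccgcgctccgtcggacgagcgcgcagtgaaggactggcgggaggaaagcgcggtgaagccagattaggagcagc
Jun promoter, chr4:95052173-95052472, minus strand: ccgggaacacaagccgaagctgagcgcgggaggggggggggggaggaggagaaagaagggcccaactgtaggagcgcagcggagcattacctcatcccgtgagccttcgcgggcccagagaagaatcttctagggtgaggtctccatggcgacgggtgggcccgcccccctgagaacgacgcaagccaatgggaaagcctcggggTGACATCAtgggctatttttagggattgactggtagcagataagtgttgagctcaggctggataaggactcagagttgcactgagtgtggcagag
Egr2 promoter, chr10:67537619-67537918, plus strand: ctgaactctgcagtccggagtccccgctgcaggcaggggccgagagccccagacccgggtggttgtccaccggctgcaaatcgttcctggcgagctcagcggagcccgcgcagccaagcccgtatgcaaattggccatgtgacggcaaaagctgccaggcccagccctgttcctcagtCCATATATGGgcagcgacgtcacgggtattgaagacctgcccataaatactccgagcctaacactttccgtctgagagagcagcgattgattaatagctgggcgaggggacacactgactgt
The search used TGACGTCA (the cAMP response element), TGACATCA (its variant known from Jun), TGANTCA (the AP-1 site), GCGNGGGCG (the Egr site) and the CArG box of serum response factor, and no matches overlapped. TGACGTCA stood 143 bases before the Dusp1 start, and 1.79% of all 32851 promoter windows held it. TGACATCA stood 45 bases before the Jun start (3.62% of windows). A CArG box stood 72 bases before the Egr2 start shown (1.63% of windows), and Egr2 had further annotated starts. The Fos window held none of these exact motifs, and among the windows not shown Fosb held GCGNGGGCG (5.55% of windows). TGANTCA was in none of the windows of these genes, against 7.81% of all windows. A match of letters is a description of the window and not a measured binding site.

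**Figure D1:**
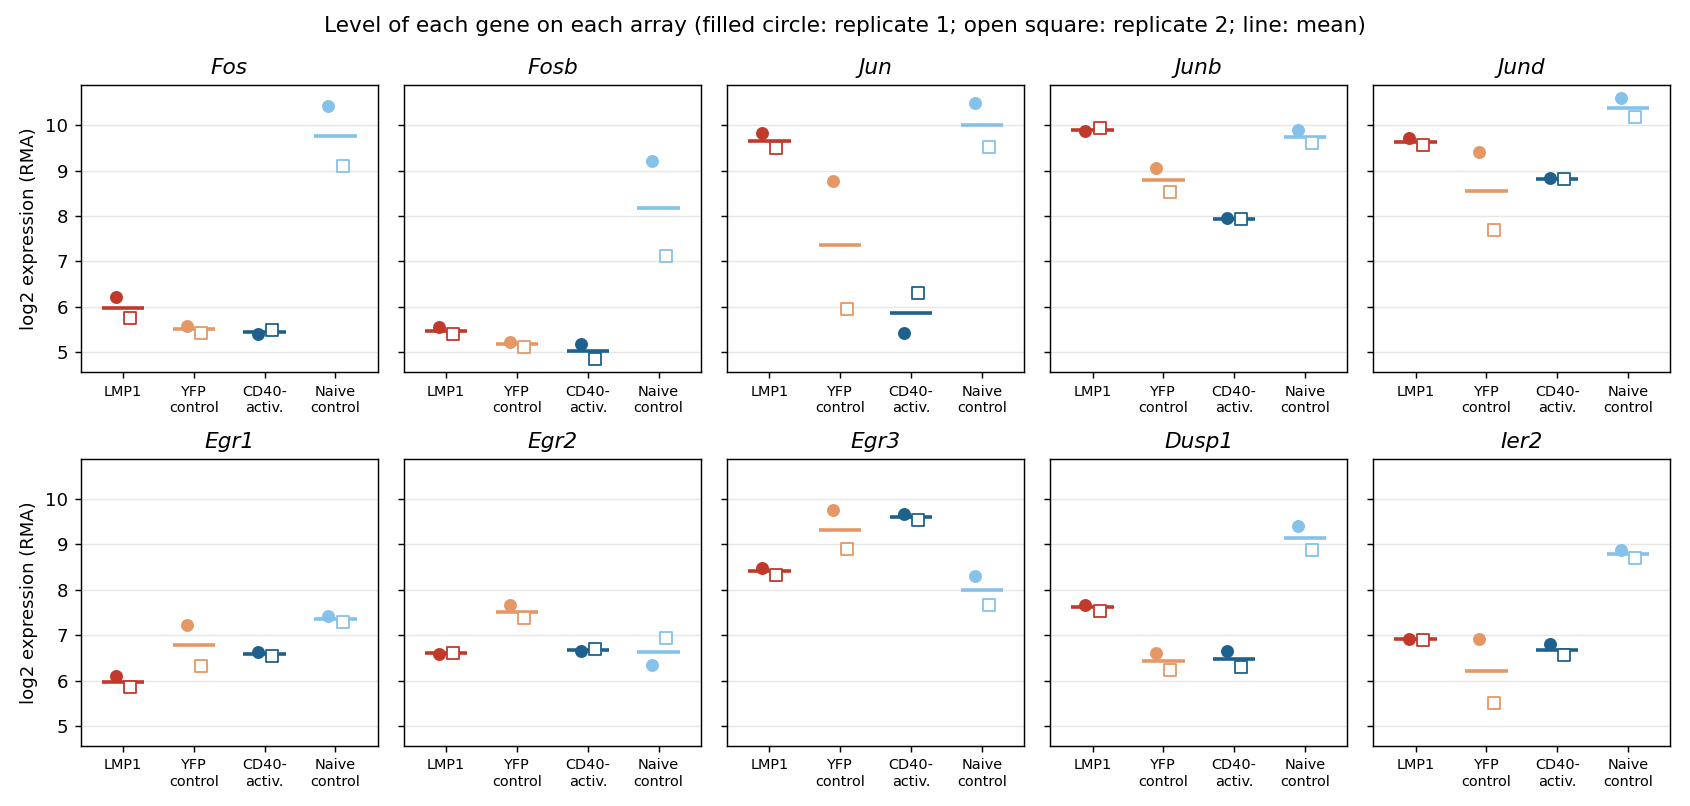
Level of each gene on each of the 8 arrays (y axis, log2 RMA expression, same scale in all panels), by group on the x axis, with replicate 1 as a filled circle, replicate 2 as an open square and the group mean as a line. Fos, Fosb, Dusp1 and Ier2 are highest on both naive control arrays, Jun and Junb are high in LMP1 and naive control, and Egr3 is high in YFP control and CD40-activated.

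The comparison of LMP1 with YFP control cells addressed the effect of LMP1 within 1 cross, sex, treatment and sort. Jun, Junb and the phosphatase gene Dusp1 were higher in LMP1 cells, while Egr2 and Egr3 were lower. Over the 10 genes 3 rose, 2 fell and 5 did not pass, where 23.2% of all genes passed, 14.9% upwards and 8.31% downwards. The median change of the 10 genes was 0.59 and that of all genes -0.07 (log2).

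Within the Jun family, Junb encodes an AP-1 subunit that activates fewer targets than Jun and can oppose it. Its level was 9.87 and 9.93 on the LMP1 arrays, against 9.05 and 8.53 on the YFP control arrays. The arrays did not overlap, and the increase was 1.11 ± 0.20 (log2, SE, n = 2 arrays a group, adjusted p = 0.00313), a 2.16-fold difference. Jun, the JNK substrate that gives AP-1 most of its activity, was at 9.82 and 9.49 in LMP1 cells, against 8.78 and 5.95 in YFP control. Both LMP1 arrays lay above both controls, but the controls themselves were 2.83 log2 apart. The fitted increase was 2.29 ± 0.73 (adjusted p = 0.0464, 95% interval 0.67 to 3.91), and leaving out any 1 of the 8 arrays except YFP control 1 ended the call (adjusted p = 0.0691 to 0.24). So did fitting only these groups (0.135), subtracting array medians (0.0553) and quantile normalization within each set (0.0742), each an adjusted p. The Jun difference was 0.88 with YFP control 2 left out (adjusted p = 0.24) and 3.71 with YFP control 1 left out. Jund, the family member that resting cells express, was at 9.71 and 9.56 in LMP1 cells, against 9.40 and 7.69 in YFP control, with a difference of 1.09 ± 0.43 that did not pass (adjusted p = 0.0998). Its dimmer probe set disagreed, at 6.53 and 6.67 in LMP1 cells and 7.04 and 6.30 in YFP control, a difference of -0.07 ± 0.23.

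The Fos genes encode the AP-1 subunits that bind DNA only with a Jun partner, and both were low in these groups. Fos was at 6.21 and 5.76 on the LMP1 arrays, against 5.58 and 5.42 on the YFP control arrays. Fosb was at 5.55 and 5.39 in LMP1 cells, against 5.23 and 5.11 in YFP control. Neither difference passed (0.48 ± 0.35 for Fos, adjusted p = 0.381, and 0.30 ± 0.50 for Fosb, adjusted p = 0.732). Fosb was at or below the median probe set on 1 LMP1 array and both YFP controls, and Fos on 1 YFP control, at the dim end of the array.

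Egr2 and Egr3 fell with LMP1. Egr2, which in lymphocytes is known for restraining activation and proliferation as well as for its induction by antigen receptors, was at 6.58 and 6.61 in LMP1 cells, against 7.66 and 7.38 in YFP control. The arrays stood apart and the change was -0.93 ± 0.21 (adjusted p = 0.0103), a call lost without LMP1 array 1 or LMP1 array 2 (adjusted p = 0.0784 and 0.0671). Egr3, its close relative, was at 8.49 and 8.32 in LMP1 cells, against 9.75 and 8.89 in YFP control. That change of -0.92 ± 0.29 only just passed (adjusted p = 0.0474), and without YFP control 1 it was -0.49 (adjusted p = 0.197). The call also ended without either LMP1 array or either CD40-activated array (adjusted p = 0.0835 to 0.217), with only these groups fitted (adjusted p = 0.0987) and with array medians subtracted (adjusted p = 0.0945). Egr1, a widely used read-out of ERK signalling, was at 6.09 and 5.85 in LMP1 cells, against 7.23 and 6.32 in YFP control. Its difference of -0.80 ± 0.26 did not pass (adjusted p = 0.0532), but was -1.26 without YFP control 2 (adjusted p = 0.00173) and -0.35 without YFP control 1.

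Dusp1 encodes a nuclear phosphatase that switches off p38 and JNK. It was at 7.67 and 7.54 in LMP1 cells, against 6.60 and 6.23 in YFP control, an increase of 1.19 ± 0.23 (adjusted p = 0.00387). The arrays did not overlap. Ier2, a short-lived nuclear regulator, was at 6.91 and 6.90 in LMP1 cells, against 6.91 and 5.51 in YFP control, with a difference of 0.70 ± 0.36 that did not pass (adjusted p = 0.208). The groups met at YFP control 1, and without YFP control 1 the Ier2 difference was 1.40 (adjusted p = 0.000819).

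Related genes moved in several directions between LMP1 and YFP control, and the counts below stand beside 23.2% of all genes passing. The shares of the MAP kinase phosphatases (25%) and of serum response factor and its partners (20%) were near that background. Of 12 AP-1 and Maf relatives 4 rose and 2 fell, led by Batf (2.31 ± 0.25), an AP-1 factor of B cell class switching, the stress-induced Atf3 (2.14 ± 0.20) and the repressor Jdp2 (1.59 ± 0.20). Bach2, which holds back plasma cell differentiation, was lower (-1.17 ± 0.20). Batf was at 9.12 and 9.36 in LMP1 cells, against 7.33 and 6.53 in YFP control. Of 8 MAP kinase phosphatases 2 rose and 0 fell, namely Dusp16 (1.53 ± 0.17), which acts on JNK, and Dusp4 (1.33 ± 0.25). Of 10 MAP kinases 2 rose and 2 fell, with Map2k1 at 1.54 ± 0.33 and Map3k1, a kinase upstream of JNK, at -1.59 ± 0.26. Of 5 genes of serum response factor and its partners 0 rose and 1 fell, the partner Elk3 (-1.75 ± 0.16), while Srf itself was at 0.12. None of 3 Egr relatives and corepressors passed. Of 31 other immediate-early genes 8 rose and 6 fell, with the ubiquitin-editing NF-kB inhibitor Tnfaip3 (2.89 ± 0.17) and the antiproliferative gene Btg2 (-2.81 ± 0.20) furthest apart. Btg2 was at 7.64 and 7.35 in LMP1 cells, against 10.28 and 10.33 in YFP control. These list medians ran from -0.29 to 0.57, and the heat shock genes, with 5 of 9 up and 0 down, had a median of 1.27. The mitochondrial chaperone genes Hspd1 (1.88) and Hspe1 (1.73) led them. Of the 8 B cell markers 5 were lower in LMP1 cells, namely Cd22 (-2.43), Blk (-1.46), Cd79a (-1.17), Ebf1 (-0.85) and Cd79b (-0.67), while Ms4a1 (-0.49), Pax5 (0.03) and Cr2 (0.42) did not pass, and the part of this in the changes above was not tested.

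The YFP control arrays differed for these genes in 1 direction. All 10 were higher on YFP control 1 than on YFP control 2, with a median gap of 0.69, while 43.9% of all genes were higher on YFP control 1 and the median gap over all genes was -0.06. The gap of Jun, 2.83, was known when these genes were chosen for a description by array and is given as a description. Jund had a gap of 1.71, Ier2 of 1.40, Egr1 of 0.91 and Egr3 of 0.86, and Fosb had the narrowest, at 0.12. Taken without sign, the median gap over all genes was 0.28, and Fosb, Fos (0.16) and Egr2 (0.28) did not exceed it. The T cell markers ran the other way, lower on YFP control 1 for all 8 measured genes with a median of -0.46, as did all 7 NK cell markers (median -0.19) and 11 of 12 monocyte and macrophage markers (median -0.35). Of related lists, 9 of 10 MAP kinases (median 0.31) and 6 of 8 MAP kinase phosphatases (median 0.44) were higher on YFP control 1, and 17 of 31 other immediate-early genes (median 0.11). The AP-1 and Maf relatives were split, with 6 of 12 higher on YFP control 1 (median -0.00). Of heat shock genes 5 of 9 were higher there (median 0.16), and 3 of 5 serum response factor and partner genes (median 0.31). The part of the cell type markers in the gap was not tested. On the naive controls 9 of the 10 genes were higher on array 1, with Fosb 2.09 and Fos 1.32 apart, against a median gap of 0.01 over all genes, and Egr2 was lower by 0.59 on array 1. There 9 of 9 heat shock genes (median 0.61, up to 2.22), 27 of 31 other immediate-early genes (median 0.23) and 10 of 10 MAP kinases (median 0.17) were higher on array 1 as well. So were 9 of 12 AP-1 and Maf relatives (median 0.23), but 1 of 5 serum response factor and partner genes (median -0.07). Of erythroid and platelet markers 4 of 5 were higher on array 1 (median 0.77), and of NK cell markers 5 of 7 (0.54). Dendritic cell (5 of 7), monocyte and macrophage (9 of 12) and T cell markers (6 of 8) mostly were too. Neutrophil (5 of 10) and B cell markers (4 of 8) were split. The part of these markers in the naive gap was not tested. The LMP1 arrays were at most 0.45 apart for any of the 10, and the CD40-activated arrays were at most 0.34 apart except for Jun, which was 0.88 higher on array 2.

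**Figure D2:**
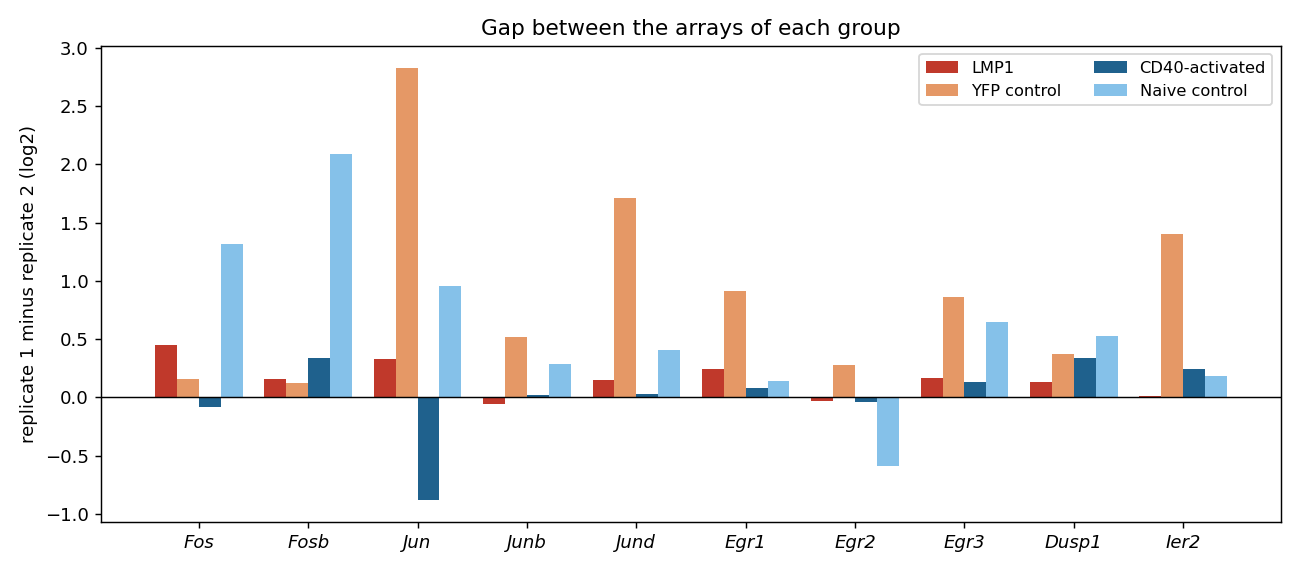
Replicate 1 minus replicate 2 (y axis, log2) for each gene (x axis) in each of the 4 groups, shown as bars of different colours. The YFP control bars are all above 0 and reach 2.83 for Jun, and the naive control bars reach 2.09 for Fosb.

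The comparison of CD40-activated with naive control B cells addressed activation through CD40. Of the 10 genes 7 fell and 1 rose, where 17.7% of all genes passed, 11% upwards and 6.65% downwards. The median over the 10 genes was -1.96, against -0.05 over all genes. Fos and Jun fell furthest and Egr3 was the 1 gene that rose. Since the naive cells went straight to RNA, time outside the animal and the antibody cannot be told apart in this comparison. The YFP control cells, taken 2 days after isolation and TAT-Cre with no antibody named in the labels, were therefore set against the same naive arrays, and the pair of comparisons shares those arrays. There 7 of the 10 genes fell and 2 rose, where 18.5% of all genes passed, 10.9% upwards and 7.59% downwards, and strain, sex, TAT-Cre and sort differed as well.

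Fos was at 5.40 and 5.48 in CD40-activated cells, against 10.43 and 9.11 in naive control, a change of -4.33 ± 0.35 (adjusted p = 6.62e-05) or 20.1-fold. YFP control gave -4.27 ± 0.35 against the same naive arrays (adjusted p = 8.54e-05). All 6 arrays of the other groups lay at or below 6.21, and the lower naive array at 9.11 was far above them. Fosb was at 5.19 and 4.85 in CD40-activated cells, against 9.21 and 7.12 in naive control, a change of -3.14 ± 0.50 (adjusted p = 0.00235), and YFP control stood at -3.00 ± 0.50. Without naive control 1 the YFP control difference for Fosb was -1.95. Both CD40-activated arrays were at or below the array median for Fos and Fosb.

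Jun was at 5.42 and 6.30 in CD40-activated cells, against 10.49 and 9.53 in naive control, a change of -4.15 ± 0.73 (adjusted p = 0.00365) that was -3.71 without CD40-activated array 1 (adjusted p = 0.0511). For YFP control the Jun change was -2.64 ± 0.73 (adjusted p = 0.032), a call that leaving out any 1 array except YFP control 1 ended (adjusted p = 0.0505 to 0.168), with -1.23 without YFP control 2 and -4.06 without YFP control 1. Junb was at 7.95 and 7.93 in CD40-activated cells, against 9.90 and 9.61 in naive control, a change of -1.81 ± 0.20 (adjusted p = 0.000346). In YFP control the Junb change was -0.96 ± 0.20 (adjusted p = 0.0101), and -0.82 without naive control 1 (adjusted p = 0.0593). With only the YFP control and naive arrays fitted, the calls of Jun, Junb and Jund between them ended (adjusted p = 0.0809, 0.0683 and 0.0591). Junb thus lay in the order naive control, YFP control, CD40-activated, with no overlap between arrays of neighbouring groups. Jund was at 8.84 and 8.81 in CD40-activated cells, against 10.60 and 10.19 in naive control, at -1.57 ± 0.43 (adjusted p = 0.0311), with YFP control at -1.85 ± 0.43 (adjusted p = 0.0153). Leaving out either naive array ended both Jund calls (adjusted p = 0.151 and 0.0829 for CD40-activated, 0.094 and 0.0517 for YFP control). For CD40-activated cells leaving out any array of LMP1 or CD40-activated did so too (adjusted p = 0.0519 to 0.158), as did subtracting array medians (adjusted p = 0.0573). Its dimmer probe set fell as well, with -1.40 ± 0.23 in CD40-activated cells and -1.22 ± 0.23 in YFP control.

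Dusp1 was at 6.64 and 6.30 in CD40-activated cells, against 9.41 and 8.88 in naive control, a change of -2.68 ± 0.23 (adjusted p = 7.61e-05), beside -2.73 ± 0.23 in YFP control. Ier2 was at 6.80 and 6.56 in CD40-activated cells, against 8.88 and 8.70 in naive control, a change of -2.11 ± 0.36 (adjusted p = 0.00311), beside -2.58 ± 0.36 in YFP control. For both genes every array of the other 3 groups lay below every naive array.

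Egr3 rose where Fos fell, and Egr2 and Egr1 did not pass against naive control in CD40-activated cells. Egr3 was at 9.67 and 9.54 in CD40-activated cells, against 8.31 and 7.66 in naive control, an increase of 1.62 ± 0.29 (adjusted p = 0.00428), and it was 1.34 ± 0.29 higher in YFP control (adjusted p = 0.0119). Without naive control 2 the YFP control difference was 1.01 (adjusted p = 0.0835), and without both YFP control 2 and naive control 1 it was 2.09. Egr2 was at 6.66 and 6.70 in CD40-activated cells, against 6.34 and 6.93 in naive control, with the naive arrays on either side and a difference of 0.05 (95% interval -0.43 to 0.52). In YFP control it was higher by 0.89 ± 0.21 (adjusted p = 0.018), with 0.59 without naive control 1 (adjusted p = 0.0858) and 0.74 without YFP control 1 (adjusted p = 0.052). With only the YFP control and naive arrays fitted, neither Egr2 nor Egr3 passed between them (adjusted p = 0.0962 and 0.0563). Egr1 was at 6.62 and 6.54 in CD40-activated cells, against 7.43 and 7.29 in naive control, and its difference of -0.78 ± 0.26 did not pass (adjusted p = 0.0711). In YFP control the Egr1 difference was -0.59 ± 0.26 (adjusted p = 0.156), with YFP control 1 at 7.23 close to the naive arrays, and was -1.04 without YFP control 1 (adjusted p = 0.00436). The CD40-activated difference for Egr1 passed when either of the YFP control arrays was left out (adjusted p = 0.00593).

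**Figure D3:**
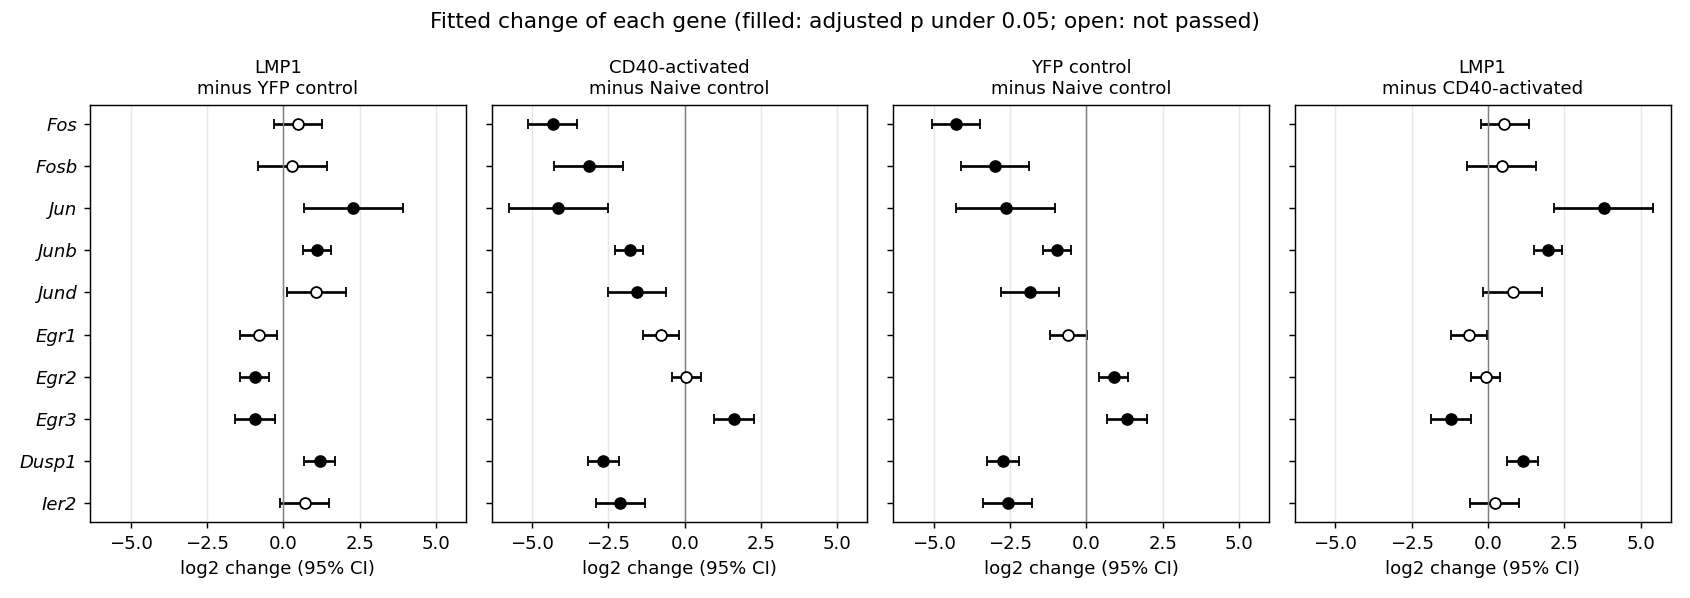
Fitted log2 change (x axis, with 95% confidence interval as bars) of each gene (y axis) for LMP1 minus YFP control, CD40-activated minus naive control, YFP control minus naive control and LMP1 minus CD40-activated, filled where the adjusted p was under 0.05. Fos, Fosb, Dusp1 and Ier2 sit far below 0 in both comparisons with naive control, and Jun is at 3.79 between LMP1 and CD40-activated cells.

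The counts below stand beside 17.7% of all genes passing in CD40-activated cells and 18.5% in YFP control, each against naive control. Other immediate-early genes fell for 11 of 31 members in CD40-activated cells and rose for 1 (median -0.59), led by the quiescence factor Klf2 (-3.02 ± 0.38), the eIF2 phosphatase subunit Ppp1r15a (-2.59 ± 0.25) and the mRNA decay factors Zfp36 (-2.45 ± 0.24) and Zfp36l2 (-2.22 ± 0.24). In YFP control 8 fell and 2 rose (median -0.25), with Ppp1r15a at -2.04 ± 0.25 and the nuclear receptor gene Nr4a3 up by 1.74 ± 0.30. Heat shock genes fell for 4 of 9 members in CD40-activated cells and 6 of 9 in YFP control, and rose for 0 in both. The inducible chaperone genes Hspa1b (-6.80 ± 0.37 and -7.00 ± 0.37) and Hspa1a (-6.50 ± 0.54 and -6.91 ± 0.54) fell further than Fos. Of the 8 MAP kinase phosphatases Dusp2 (-1.50 ± 0.33) and Dusp5 (2.01-fold, SE 0.23 on the log2 scale) fell in CD40-activated cells and Dusp4 (1.13 ± 0.25) and Dusp7 (0.58 ± 0.17) rose. AP-1 and Maf relatives rose for 2 of 12 and fell for 3 in CD40-activated cells, with Bach2 at -1.09 ± 0.20 and Batf at 0.82 ± 0.25, and rose for 4 and fell for 2 in YFP control. Of the 5 genes of serum response factor and its partners Elk3 alone passed, upwards in both (0.70 ± 0.16 and 0.54 ± 0.16). That share of 20% was near the share of all genes.

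T cell, NK cell, and erythroid and platelet markers were higher on the naive arrays. Against naive control 17.7% of all genes passed in CD40-activated cells, 6.65% downwards, and 18.5% in YFP control, 7.59% downwards. All 8 measured T cell markers were lower in CD40-activated cells and all 8 in YFP control, as were 6 of 7 NK cell markers and 3 of 5 erythroid and platelet markers in each. The summed T cell marker level was 8.90 to 9.19 in CD40-activated, 8.64 to 9.17 in YFP control and 11.56 to 11.87 in naive control (log2 of the sum). The summed NK cell level was 7.45 to 7.52, 7.65 to 8.11 and 9.76 to 10.26 in the same order, and the erythroid and platelet sum 7.41 to 7.45, 7.63 to 7.91 and 10.32 to 11.83. Fewer such cells and less RNA per cell cannot be told apart in these samples, and their part in the falls of Fos, Fosb, Jun, Dusp1 and Ier2 was not tested. The 10 neutrophil markers fell for 2 genes in CD40-activated cells and 1 in YFP control (20% and 10%, beside 17.7% and 18.5% of all genes passing). Of the 12 monocyte and macrophage markers 3 fell and 1 rose in CD40-activated cells, against 1 down and 2 up in YFP control. Cd68 rose in both (2.20 and 1.42), Adgre1 rose in YFP control (1.91), Ccr2 fell in both (-1.29 and -1.05) and Lyz2 fell in CD40-activated cells (-2.27). The summed monocyte and macrophage level was 9.50 to 9.69 in CD40-activated, 9.42 to 9.92 in YFP control and 9.19 to 9.50 in naive control. Of the 7 dendritic cell markers 1 fell and 1 rose in CD40-activated cells and 4 fell and 0 rose in YFP control, with Itgax at -1.81 and -1.86. Between LMP1 and YFP control, where 23.2% of all genes passed, 1 T cell marker, Cd3g, passed (-1.13), with 0 NK cell and 0 erythroid or platelet markers. Adgre1 (-2.02) and Lyz2 (-1.90) of the 12 monocyte and macrophage markers and Flt3 (2.99) and Zbtb46 (1.79) of the 7 dendritic cell markers passed there.

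**Figure D4:**
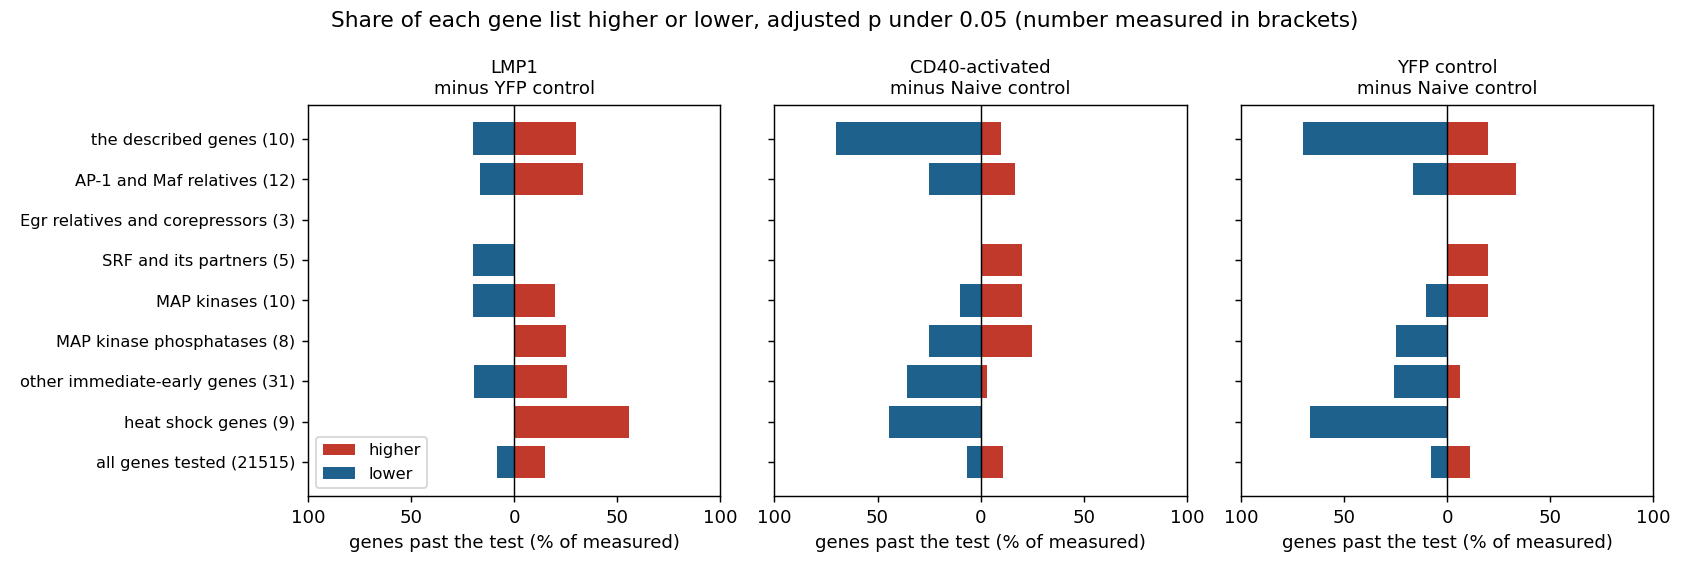
Share of each gene list (y axis, with the number measured) that passed the test upwards (right) or downwards (left) for LMP1 minus YFP control, CD40-activated minus naive control and YFP control minus naive control, as a percentage of measured genes on the x axis. In both comparisons with naive control 7 of the 10 described genes are lower, and of 9 heat shock genes 4 and 6 are lower and 0 higher. Of all genes tested 6.65% and 7.59% are lower.

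CD40-activated cells were set against YFP control cells because both were taken after 2 days, although strain, sex, TAT-Cre and sort differed. Of the 10 genes 2 fell and 0 rose, where 13.8% of all genes passed, 7.75% upwards and 6.06% downwards. Junb changed by -0.85 ± 0.20 (adjusted p = 0.0217) and Egr2 by -0.84 ± 0.21 (adjusted p = 0.0276). For Fos the difference was -0.06 (95% interval -0.85 to 0.73) and for Dusp1 0.05 (95% interval -0.45 to 0.56). The Jun difference of -1.50 did not pass (adjusted p = 0.214), but it was -2.92 without YFP control 2 (adjusted p = 0.00555) and -0.09 without YFP control 1. Both Junb and Egr2 were no longer called when either CD40-activated array was left out (adjusted p = 0.121 and 0.143 for Junb, 0.152 and 0.149 for Egr2), and Egr2 also without either LMP1 array or YFP control 1 (adjusted p = 0.0589 and 0.0671). Junb also did not pass with only these groups fitted (adjusted p = 0.0723). Without YFP control 1, Jund (1.14, adjusted p = 0.006) and Ier2 (1.17, adjusted p = 0.00298) were called upwards. Of 12 AP-1 and Maf relatives 0 rose and 2 fell (16.7%, near the share of all genes), namely Bach2 (-1.80 ± 0.20) and Atf7 (-0.78 ± 0.16). Of 31 other immediate-early genes 2 rose and 9 fell. The risers were Tnfaip3 (1.35 ± 0.17) and Nfkbia (1.24 ± 0.15), and Nr4a3 (-2.07 ± 0.30) and Zfp36 (-2.05 ± 0.24) fell furthest. Of 8 MAP kinase phosphatases 2 rose and 0 fell, the ERK phosphatase Dusp6 (1.76 ± 0.35) and Dusp10 (1.29 ± 0.23). Of 9 heat shock genes 4 rose and 0 fell.

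LMP1 cells were compared with CD40-activated cells directly. Jun, Junb and Dusp1 were higher in LMP1 cells and Egr3 was lower, with 3 of 10 up and 1 down where 14.8% of all genes passed, 9.66% upwards and 5.17% downwards. In the same comparison 5 of 8 B cell markers were lower in LMP1 cells (Cd22 -2.05, Blk -1.31, Ms4a1 -0.98, Cd79a -0.96 and Cr2 -0.96), and 3 of 7 dendritic cell markers were higher (Flt3 2.59, Batf3 1.62 and Zbtb46 1.21) and 1 lower (Siglech -1.29). Cd79b (0.32), Pax5 (0.21) and Ebf1 (-0.15) did not pass, and the part of these markers in the result was not tested. The Jun levels of 9.82 and 9.49 in LMP1 cells, against 5.42 and 6.30 in CD40-activated cells, gave 3.79 ± 0.73 (adjusted p = 0.00637) or 13.9-fold. Among all 21515 genes this was the 9th highest increase. Leaving out LMP1 array 1 gave 3.63 (adjusted p = 0.0544) and leaving out CD40-activated array 1 gave 3.35 (adjusted p = 0.0744). Junb differed by 1.96 ± 0.20 (adjusted p = 0.000218), Dusp1 by 1.14 ± 0.23 (adjusted p = 0.00785) and Egr3 by -1.20 ± 0.29 (adjusted p = 0.0211). The Egr3 call was lost without any 1 of these 4 arrays (adjusted p = 0.0955 to 0.144), and the Dusp1 call without LMP1 array 1, LMP1 array 2 or CD40-activated array 2 (adjusted p = 0.0519 to 0.1). Egr1 (-0.61 ± 0.26, adjusted p = 0.178) and Jund (0.81 ± 0.43, adjusted p = 0.283) did not pass, and did where only these groups were fitted (adjusted p = 0.0095 and 0.00166) or either YFP control array was left out (adjusted p = 0.0189 and 0.0105). The dimmer Jund probe set was at 0.11 ± 0.23. Egr2 was at -0.08 (95% interval -0.56 to 0.39). Fos was at 6.21 and 5.76 in LMP1 cells, against 5.40 and 5.48 in CD40-activated cells. Its difference of 0.54 ± 0.35 did not pass (adjusted p = 0.402), but did with only these groups fitted (adjusted p = 0.0395).

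Beside these genes, Batf (2.05 ± 0.25), Atf3 (1.75 ± 0.20), Batf3 (1.62 ± 0.37) and Jdp2 (1.53 ± 0.20) were the leading of 5 AP-1 and Maf relatives higher in LMP1 than in CD40-activated cells, with 0 of 12 lower. Of all genes 14.8% passed here, 9.66% upwards and 5.17% downwards. Of 31 other immediate-early genes 12 were higher and 3 lower, with Nr4a2 (2.25 ± 0.26), Ptgs2 (2.22 ± 0.40), Gadd45b (2.06 ± 0.30) and Ier3 (2.02 ± 0.23) in front. Of 8 MAP kinase phosphatases 2 were higher and 3 lower, with Dusp16 (1.85 ± 0.17) and Dusp6 (-2.13 ± 0.35) furthest apart. Elk3 (-1.92 ± 0.16) and Map3k1 (-2.04 ± 0.26) were lower.

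The changes of LMP1 and of CD40-activated cells, each against its own control, were compared by the difference between them. Of the 10 genes 7 passed upwards and 1 downwards, where 8.32% of all genes passed, 4.2% upwards and 4.12% downwards. For Jun the change was 2.29 with LMP1 and -4.15 with CD40 activation, a difference of 6.44 ± 1.03 (adjusted p = 0.00469). Of all genes 3 had one at least that high, namely Hspa1b (8.51 ± 0.52), Hspa1a (7.52 ± 0.76) and Jun. Dusp1 had 1.19 and -2.68, a difference of 3.87 ± 0.32 (adjusted p = 0.000156), and Junb 1.11 and -1.81, a difference of 2.92 ± 0.29 (adjusted p = 0.000413). Egr3 was reversed, at -0.92 with LMP1 and 1.62 with CD40 activation, a difference of -2.54 ± 0.41 (adjusted p = 0.00524). Fos had 0.48 and -4.33, a difference of 4.81 ± 0.50 (adjusted p = 0.000529). Fosb (3.44 ± 0.71), Jund (2.66 ± 0.60) and Ier2 (2.81 ± 0.51) also passed (adjusted p = 0.0171, 0.0255 and 0.00874). Each of these 3 calls ended without CD40-activated array 2 (adjusted p = 0.0936, 0.11 and 0.0586). Fosb also lost it without YFP control 2 or any LMP1 or CD40-activated array, and Jund without any LMP1, naive or CD40-activated array (adjusted p = 0.051 to 0.11). The dimmer Jund probe set had a smaller difference of 1.33 ± 0.33. Egr1 was at -0.02 ± 0.37 and Egr2 at -0.97 ± 0.30, which did not pass (adjusted p = 0.979 and 0.0813). Heat shock genes passed upwards for 6 of 9 and downwards for 0. Of 31 other immediate-early genes 9 passed upwards and 1 downwards. The difference of responses includes all that separates the YFP control cells from the naive cells.

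Set side by side over all 4 groups, Jun in LMP1 cells (9.82 and 9.49) and in naive cells (10.49 and 9.53) overlapped, as did Junb (9.87 and 9.93 in LMP1 cells, 9.90 and 9.61 in naive cells). Fos, Fosb, Jund, Egr1, Dusp1 and Ier2 were lower on both LMP1 arrays than on either naive array, with Dusp1 in LMP1 cells between the other 2 groups and the naive cells. LMP1 cells held the lowest Egr1 levels of the 4 groups, at 6.09 and 5.85.

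Some genes had a course over the 8 arrays close to that of a described gene, measured by Pearson's r among the 2170 genes that spanned at least 2 log2. These 8 points are 4 groups of 2 and share arrays and normalization, so r is given as a description. For Fos these were Hspa1a (r = 0.996), Hspa1b (0.990) and Ank1 (0.988), the last a red cell membrane gene. For Jun they were Junb (0.953), the carbonic anhydrase gene Car2 (0.944) and H2-Q4 (0.877), and for Junb Car2 (0.962), Jun (0.953) and Crim1 (0.922). Jund came closest to the phosphatase gene Dusp2 (0.973), Ube2o (0.928) and Nfkbid (0.926). Egr1 came closest to Fgd3 (0.984), the noncoding RNA Neat1 (0.977) and Phf1 (0.971), and Egr2 to Rgl1 (0.952), the gene model Gm8005 (0.949) and Ryr2 (0.935). Egr3 came closest to Zfp385a (0.953), Mir692-1 (0.940) and the chemokine receptor gene Ccr6 (0.937). Among the described genes themselves r was 0.98 for Fos with Fosb and 0.94 for Fos with Dusp1, 0.65 for Fos with Jun, 0.67 for Fos with Egr1 and -0.69 for Fos with Egr3. Car2 was at 10.10 and 9.72 in LMP1, 8.39 and 7.63 in YFP control, 6.92 and 6.58 in CD40-activated and 11.21 and 9.82 in naive control.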

How the data were processed

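RNA of spleen B cells was hybridised to 8 Affymetrix arrays, 2 in each of 4 groups taken from the labels' titles. The log2 expression values deposited by the authors are RMA values, and the submitters' processing notes name the R package oligo. Versions are not given in the sources used here. RMA shrinks small changes of dim probe sets and shares 1 distribution over arrays. Of 25349 probe sets 22225 had 1 gene symbol, 616 several and 2508 none, and only those with 1 symbol were used. For 640 genes with several probe sets the one with the highest mean was kept, leaving 21515 genes.

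Group means were fitted over all 8 arrays with limma 3.58.1 in R 4.3.3 (lmFit, eBayes), giving 4 residual and 5.75 prior degrees of freedom. Changes have limma's SE. P-values were Benjamini-Hochberg adjusted over all genes in each of 6 comparisons, 2-sided, with a threshold of 0.05. They measure the spread between 2 arrays a group, which the labels call biological replicates, pooled over all 4 groups. Groups outside a comparison therefore count in its p-values. That spread was unequal, with a gap over 1 log2 for 950 genes in YFP control, 364 in naive control, 34 in CD40-activated and 14 in LMP1. The fit was tested on simulated data. Those data gave a gene the same spread in every group, so that test does not cover the unequal spread.

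The members and gene lists were chosen with earlier results of these data known. Every member is named. In each related list up to 4 genes that passed with the widest change, and a few that did not, could be named, and of marker lists those past a log2 change of 1 and every B cell marker. The 3 genes most like a member came from those spanning 2 log2 or more. Alternatives were variance moderation with trend, fitting only the groups compared, leaving out genes below the 25th percentile, the mean of probe sets, subtracting array medians, quantile normalization within each set of 4 arrays, a replicate block and leaving out each array. Promoter sequences are RefSeq's on GRCm38.p6.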

Additional observations from a re-analysis of the deposited data

Results flagged for a closer look

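The change with LMP1 against YFP control differed from the change with CD40 activation against naive control for 8 of the 10 genes, by the test of that difference in the limma fit. The difference was 6.44 for Jun, 4.81 for Fos, 3.87 for Dusp1, 3.44 for Fosb, 2.92 for Junb, 2.81 for Ier2, 2.66 for Jund and -2.54 for Egr3 (log2, LMP1 minus CD40). The dimmer Jund probe set gave 1.33. Strain, sex, TAT-Cre, sort, set of arrays and time outside the animal differ between these comparisons, and their part in the difference was not tested. YFP control cells were taken after 2 days, while naive cells went straight into RNA extraction. YFP control against naive control was at -4.27 for Fos, -3.00 for Fosb, -2.58 for Ier2 and -1.85 for Jund. LMP1 against CD40-activated was at 0.54, 0.45, 0.23 and 0.81 in that order, and none passed in the fit of all arrays. In that fit Jun (3.79), Junb (1.96), Dusp1 (1.14) and Egr3 (-1.20) passed. With only those groups fitted Fos and Jund passed as well (adjusted p = 0.0395 and 0.00166). Over the difference of responses 7 of 8 T cell markers, 6 of 7 NK cell markers and 3 of 5 erythroid and platelet markers passed upwards and 0 downwards, where 8.32% of all genes passed in either direction.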

How the results depend on the processing

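The number of the 10 genes called was 5 for LMP1 against YFP control, 3 with only those groups fitted, 3 with array medians subtracted and 2 to 6 with 1 array left out. For LMP1 against CD40-activated it was 4, 7 with only those groups and 1 to 6 with 1 array left out. For YFP control against naive control it was 9, 4 with only those groups and 5 to 9 with 1 array left out. For CD40-activated against YFP control it was 2, 1 with only those groups and 0 to 4 with 1 array left out. For CD40-activated against naive control it was 8 (6 to 9 with 1 array left out), and for the difference of responses 8 (5 to 8). Without both YFP control 2 and naive control 1, chosen after seeing the data, LMP1 against CD40-activated had 7 and CD40-activated against YFP control 5. The causes were not tested. In the fit of all arrays 23.2%, 14.8%, 18.5%, 13.8%, 17.7% and 8.32% of all genes were called, in the order of these comparisons. The shares under the other settings, the replicate block included, are not given here. A shift in these counts is therefore not shown to be particular to the described genes. Of 950 values of single genes 820 kept direction and side of the threshold, 76 lost the call, 32 gained it and 22 turned sign.

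Signs turned only for values that did not pass in the fit of all arrays, and turned values reached -0.57, for Jund. For Egr2 in CD40-activated against naive control they were -0.08 with quantile normalization within each set, and -0.25 without naive control 1, with or without YFP control 2. For CD40-activated against YFP control, quantile normalization gave 0.05 for Fos and -0.01 for Jund. Leaving out YFP control 1 gave 0.02 for Fos and 0.26 for Egr1. Leaving out YFP control 2, alone or with naive control 1, gave -0.57 for Jund, -0.15 for Egr3, -0.13 for Dusp1 and -0.23 for Ier2, and Jund passed in the second case (adjusted p = 0.028). Leaving out CD40-activated array 2 gave 0.02 for Fosb, and array 1 gave -0.11 for Dusp1. With 1 array left out these ran from -0.25 to 0.34 for Egr2 against naive control, and against YFP control from -0.14 to 0.02 for Fos, -0.32 to 0.02 for Fosb, -0.57 to 1.14 for Jund, -0.65 to 0.26 for Egr1, -0.15 to 0.71 for Egr3, -0.13 to 0.24 for Dusp1 and -0.23 to 1.17 for Ier2. For Egr1 in the difference of responses they were 0.06 with quantile normalization, 0.43 without YFP control 1, 0.09 without LMP1 array 2, 0.05 without naive control 2 and 0.01 without CD40-activated array 1, with -0.48 without YFP control 2 and -0.55 without YFP control 2 and naive control 1.

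The replicate numbers are shared between groups, but deviations of same-numbered arrays correlated between -0.102 and 0.074, so they were not taken as pairs. With the replicate block 6 genes were called for LMP1 against YFP control, 9 for CD40-activated against naive control, 4 for LMP1 against CD40-activated, 9 for YFP control against naive control, 2 for CD40-activated against YFP control and 8 for the difference. The block added Egr1 in the first (-0.80, adjusted p = 0.0296) and in the second (-0.78, adjusted p = 0.0432) and changed no other call. With 2 arrays a group, and Fos and Fosb near the dim end outside naive cells, small differences could not be resolved.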
